A study of Drosophila melanogaster with 47 samples.

Results

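The genes described here encode the nuclear subunits of the mitochondrial respiratory chain and of ATP synthase in Drosophila melanogaster. They were chosen by symbol: genes starting with ND-, UQCR-, ATPsyn or Sdh, or with COX followed by a digit, were taken from the count table, and those with at least 10 counts in 5 or more libraries were kept. The rule found 81 of the 17137 genes listed, and 63 passed the count minimum. Of these 63, 33 belong by symbol to complex I (NADH dehydrogenase), 5 to complex II (succinate dehydrogenase), 6 to complex III (cytochrome c reductase), 8 to complex IV (cytochrome c oxidase) and 11 to complex V (ATP synthase). All but 2 encode subunits; the exceptions are Sdhaf3, a complex II assembly factor, and COX4L, a paralog of COX4. All 63 were among the 11027 genes that passed the filter on low counts and were tested.

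RNA was sequenced from heads of male and female flies kept in a cycle of 12 h of light and 12 h of dark for 4 days at 25 °C and collected at ZT2, 6, 10, 14, 18 and 22, where ZT (zeitgeber time) counts hours from lights on. The control strain was yw, which has an intact timeless (tim) gene. The other 4 strains carry CRISPR deletions at tim, a core clock gene on chromosome 2L, each on a 2nd chromosome made homozygous: tim_up126, tim_up122 and tim_up10 lack 126, 122 and 10 bp upstream of the gene with its E-box, the element that the clock activators CLK and CYC bind, and tim_in24 lacks 24 bp of an intron with another E-box. According to the study, the tim_up126 deletion also created a canonical E-box by accident, a short way upstream of the original position. Each strain is a single edited line. There were 47 libraries: 11 of yw (1 at ZT18, otherwise 2 per time point), 12 each of tim_up126 and tim_up122 (2 per time point), and 6 each of tim_up10 and tim_in24 (1 per time point).

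Oxidative phosphorylation passes electrons from NADH through complex I, or from succinate through complex II, to ubiquinone, then through complex III and cytochrome c to complex IV, where oxygen is reduced. Complexes I, III and IV pump protons out of the matrix, and complex V lets them back in to make ATP. Most subunits are encoded in the nucleus, while a core set of membrane subunits of complexes I, III, IV and V is encoded by mitochondrial DNA and is not part of the set described here. Photoreceptors and muscle are among the fly tissues richest in mitochondria.

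Totals ranged from 1761896 to 10230355 counts per library. Over the day the difference in tim from yw was -2.20 on the log2 scale in tim_up126, -1.05 in tim_up122 and -0.88 in tim_up10 (edgeR's quasi-likelihood test with Benjamini-Hochberg adjustment, as for all adjusted p-values here; adjusted p = 2.0e-12, 6.41e-07 and 0.000176), and -0.06 in tim_in24 (adjusted p = 0.842). Markers of head tissue were present: the rhodopsin gene ninaE averaged 26300 CPM (counts relative to a TMM-scaled library total), the neuronal synaptobrevin gene nSyb 1148 CPM and the glial gene repo 66.9 CPM. Head capsules also hold muscle and fat body, and the muscle myosin gene Mhc averaged 1690 CPM, with the flight muscle actin Act88F at 3.82 CPM. In bulk heads, fewer cells of a type and less RNA per cell cannot be told apart.

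The replicates of a time point differed in both strains with complete replicate series. The summed level of the 63 genes was higher in replicate 1 than in replicate 2 of tim_up126 at all 6 time points, and 61 of 63 genes were higher on average (median difference 0.20 on the log2 scale, against 0.04 over all genes tested). In tim_up122 the order was the other way, with 18 of 63 genes higher in replicate 1 and a median difference of -0.09; at ZT6 its replicates had nearly the same summed level, 12449 and 12477 CPM. In yw, 40 of 63 were higher in replicate 1 over the 5 time points with 2 libraries, with a median difference of 0.02. Over ZT2, 6, 10, 14 and 22, the neuron markers (elav, nSyb, brp and Syt1) summed to 2971 CPM in replicate 1 and 3501 CPM in replicate 2 of tim_up126, and to 3485 CPM and 3111 CPM in tim_up122, so they were lower where the respiratory genes were higher. Genes with over 3000 exonic bases had a median difference between the replicates of -0.07 in tim_up126 and 0.03 in tim_up122, against 0.11 and -0.03 for genes of at most 1000 bases. Their part in the difference was not tested. The design does not say what the replicate number stands for, so the strain differences below are read against this spread as well.

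The 63 genes together took a mean of 11986 CPM over the day in yw. Levels differed widely between and within complexes. Per kilobase of exon, the median subunit was highest in complex IV (263 CPM per kb) and complex V (244 CPM per kb), followed by complex III (184 CPM per kb), complex II (131 CPM per kb) and complex I (107 CPM per kb). The highest level per kilobase of all was that of ATPsynC (711 CPM per kb), which encodes the proteolipid that is present in many copies in the rotating ring of ATP synthase. It was followed by ATPsynbeta, the catalytic subunit (639 CPM per kb). Among the subunits, the other end was held by ND-AGGG, a small membrane subunit of complex I (42.0 CPM per kb), and ATPsyndelta (43.0 CPM per kb), whose annotated exons run to 3817 bases, the longest among the 63, with 1358 of them overlapped by CG2962 on the opposite strand.

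In CPM, without correction for length, the means over all 47 libraries spanned from 1525 CPM for ATPsynbeta to 31.3 CPM for ND-AGGG among the subunits. Within complex I the highest was ND-75, the largest subunit of the NADH-oxidising arm, with 373 CPM. In complex II the level ran from 109 CPM for SdhD, a membrane anchor, to 365 CPM for SdhA, the flavoprotein that oxidises succinate. In complex III it ran from 56.2 CPM for UQCR-6.4 to 480 CPM for the core protein UQCR-C1, in complex IV from 129 CPM for COX8 to 396 CPM for COX4, and in complex V the lowest was ATPsynCF6 with 162 CPM. The other 2 genes were far below all of these, Sdhaf3 with 5.43 CPM and COX4L with 1.41 CPM. The genes are short as a group: 42 of the 63 have at most 1000 exonic bases, against 1802 of the 10353 tested genes with an annotated length. They lie on every major chromosome arm, with 11 on 2L, 12 on 2R, 12 on 3L, 14 on 3R, 12 on X and 2 on chromosome 4.

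In yw heads the respiratory genes were higher late in the night than in the day, in all 5 complexes at the same time. Their summed level was 11698 and 11539 CPM in the 2 libraries of ZT2, 10513 and 10418 CPM at ZT6, 11063 and 10792 CPM at ZT10, 11547 and 11177 CPM at ZT14, 14005 CPM in the only library of ZT18, and 13862 and 13216 CPM at ZT22. The 3 libraries of ZT18 and ZT22 thus lay above the other 8, with no overlap. The ZT18 library and replicate 1 of ZT22 were also close in marker sums of other kinds. There, muscle markers summed to 4667 and 4644 CPM and the yolk protein genes, markers of females, to 38660 and 38060 CPM. The male markers roX1 and roX2 summed to 1060 and 1090 CPM. Replicate 2 of ZT22 had 3875, 53630 and 812 CPM. Complex I summed to 4402 and 4378 CPM in them, against 4167 CPM in replicate 2 of ZT22. For complex III the values were 1547 and 1542 CPM, against 1425 CPM. Whether the ZT18 library and replicate 1 of ZT22 are independent samples was not tested. The counts and p-values for yw treat them as separate samples of different time points, and are limited by this. The ratio of the highest to the lowest time point was 1.34 for all genes together, 1.30 for complex I, 1.36 for complex II, 1.41 for complex III, 1.33 for complex IV and 1.35 for complex V, each with its lowest mean at ZT6 and its highest at ZT18.

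**Figure D1:**
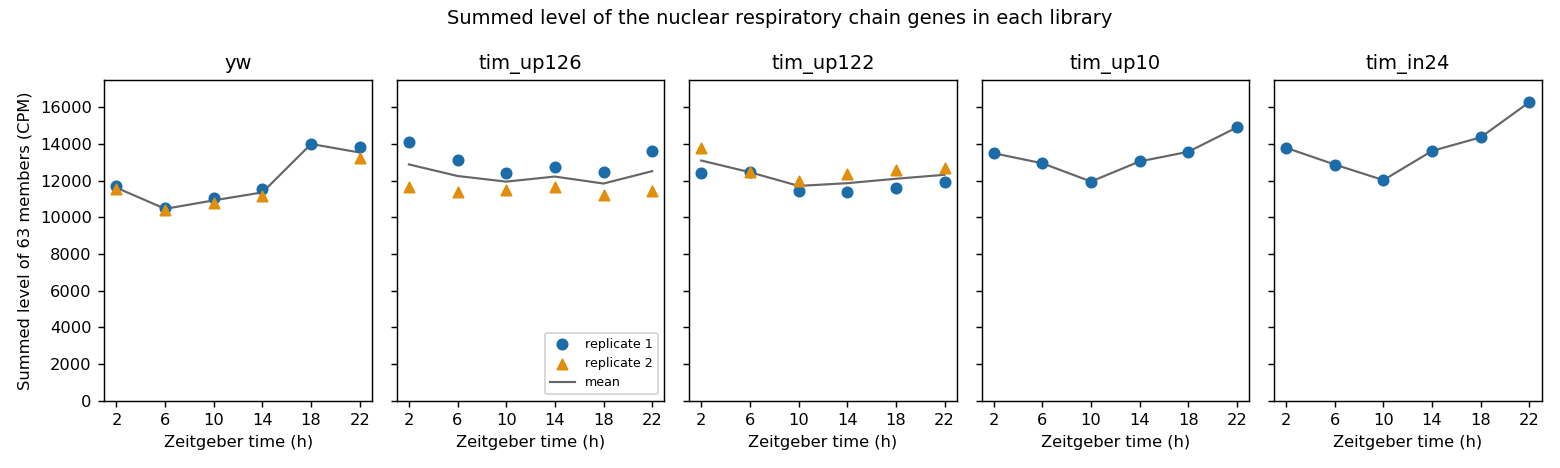
Summed level (CPM) of the 63 genes against zeitgeber time (h) in each strain. Circles are replicate 1, triangles replicate 2, and the line joins the means. In yw the 3 libraries of ZT18 and ZT22 sit between 13216 and 14005 CPM and the other 8 between 10418 and 11698 CPM, while in tim_up126 every circle lies above the triangle of its time point.

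Single genes showed the same order. ND-B18, a membrane-arm subunit of complex I encoded on chromosome X (chrX:15063733-15064926), had 43.1 and 41.9 CPM at ZT2, 38.8 and 36.0 CPM at ZT6, 40.0 and 43.6 CPM at ZT10, 47.4 and 49.0 CPM at ZT14, 59.3 CPM at ZT18, and 58.7 and 58.4 CPM at ZT22. The night libraries were above all others and close to each other. ATPsynB, which encodes the peripheral stalk subunit b of ATP synthase (chr3L:9729999-9731224), rose from 248 and 241 CPM at ZT6 to 367 CPM at ZT18 and 381 and 363 CPM at ZT22, with the remaining 6 libraries between 273 and 308 CPM. SdhA stood at 334 and 302 CPM at ZT6, at 405 CPM at ZT18 and at 431 and 419 CPM at ZT22, with 373 and 338 CPM at ZT2 and 295 to 332 CPM at ZT10 and ZT14. For 50 of the 63 genes all 3 libraries of ZT18 and ZT22 were above all 8 others, which held for 4.10% of all genes tested. The reverse, all 3 below, held for none of the 63 and for 3.78% of all genes. This split of the time points was chosen after the values had been seen. The mean of ZT18 and ZT22 was above that of ZT6 and ZT10 for all 63, by a median of 0.36 on the log2 scale, against -0.01 over all genes tested.

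A 24 h rhythm in yw was tested by fitting a cosine and a sine together within that strain. The fit called 49 of the 63 genes at an adjusted p under 0.05, where 15.4% of all genes tested were called. By complex these were 23 of 33 in complex I, 4 of 5 in complex II, 4 of 6 in complex III, 7 of 8 in complex IV and 11 of 11 in complex V. The fitted curves of the called genes peaked between 17.9 and 21.3 h, and their amplitudes, measured from mean to peak, ran from 0.15 to 0.36 on the log2 scale. Among all rhythmic genes of yw, 40.7% had a peak between 16 and 24 h. The median amplitude of the 63 was 0.21, against 0.14 over all genes tested.

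The smallest p-values in yw were those of ND-B18, ATPsynB, ND-18 and ATPsynG. ND-B18 had a fitted amplitude of 0.36 (adjusted p = 0.000676), and ATPsynB one of 0.31 (adjusted p = 0.000678). ND-18, the accessory subunit of the NADH-oxidising arm whose human counterpart is NDUFS4, had an amplitude of 0.27 (adjusted p = 0.0015), and ATPsynG, a membrane subunit of ATP synthase, one of 0.25 (adjusted p = 0.00222). Their least-squares amplitudes on log2 CPM were 0.34 ± 0.035, 0.30 ± 0.031, 0.26 ± 0.029 and 0.24 ± 0.035 (SE, 11 libraries), each several times its error. Core catalytic subunits were called as well. ND-75 had an amplitude of 0.18 (adjusted p = 0.0254), ND-51, which binds NADH, 0.20 (adjusted p = 0.0139), ND-49 0.20 (adjusted p = 0.00458) and ND-20 0.19 (adjusted p = 0.0155). In complexes II and III the amplitude was 0.24 for SdhA (adjusted p = 0.00572), 0.22 for the iron-sulfur subunit SdhB (adjusted p = 0.0135), 0.24 for UQCR-C1 (adjusted p = 0.00794) and 0.29 for UQCR-C2 (adjusted p = 0.00375). COX4 (0.24, adjusted p = 0.00566), COX5A (0.20, adjusted p = 0.00955), ATPsynbeta (0.21, adjusted p = 0.00621) and ATPsynC (0.18, adjusted p = 0.0119) completed the genes followed in every comparison. The 14 genes that did not pass included 10 of complex I, among them ND-AGGG (0.09, adjusted p = 0.517), and both low genes Sdhaf3 and COX4L.

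The yw result leaned on its late-night libraries. Without the ZT18 library 34 genes were called, without 1 of the other libraries 38 to 49, and without both ZT22 libraries, an alternative added after the data had been seen, 10. Scaling each library to its RpL32 count, the reference transcript of the study's qRT-PCR, gave 16 calls. Shares of all genes in these settings are not given, so a loss of member calls cannot be told from a general loss. Muscle markers moved with the genes in part of the yw libraries. The 10 markers summed to 2535 and 3044 CPM at ZT6, to 4667 CPM at ZT18 and to 4644 and 3875 CPM at ZT22. At the other time points they ranged from 3331 to 3984 CPM, and 7 of the 10 were called rhythmic. In the ZT22 library with 3875 CPM of muscle markers the respiratory genes summed to 13216 CPM. In the night libraries with 4667 and 4644 CPM, the highest muscle sums of yw, they summed to 14005 and 13862 CPM. The neuron markers stayed between 2815 and 3324 CPM and none of the 4 was called, while 6 of the 8 photoreceptor markers were called with a summed range of 32230 to 40940 CPM. Their part in the rhythm was not tested. By length, 30 of the 42 genes with at most 1000 exonic bases and 19 of the 21 longer ones were called.

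By the same edgeR test run within the strain, 0 of the 63 genes were called rhythmic in each deletion strain at an adjusted p under 0.05, where 6.01% of all genes were called for tim_up126, 7.28% for tim_up122, 2.44% for tim_up10 and 1.15% for tim_in24. At an unadjusted p under 0.05 there were 1 and 6 in the larger deletions tim_up126 and tim_up122, 19 in tim_up10, and 28 for tim_in24, where 16.7%, 19.7%, 12.4% and 12% of all genes passed the same threshold. These tests had fewer libraries in tim_up10 and tim_in24, with 6 each. In tim_in24 the median amplitude was 0.20 (0.18 over all genes), beside the 0.21 of yw, with 61 of 63 fitted peaks between 16 and 24 h. In tim_up10 it was 0.13 (0.15 over all genes), with 58 of 63 peaks in those hours. In tim_up126 and tim_up122 it was 0.06 and 0.07, below the medians over all genes of 0.12 and 0.13, with 22 and 25 of 63 peaks between 16 and 24 h.

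**Figure D2:**
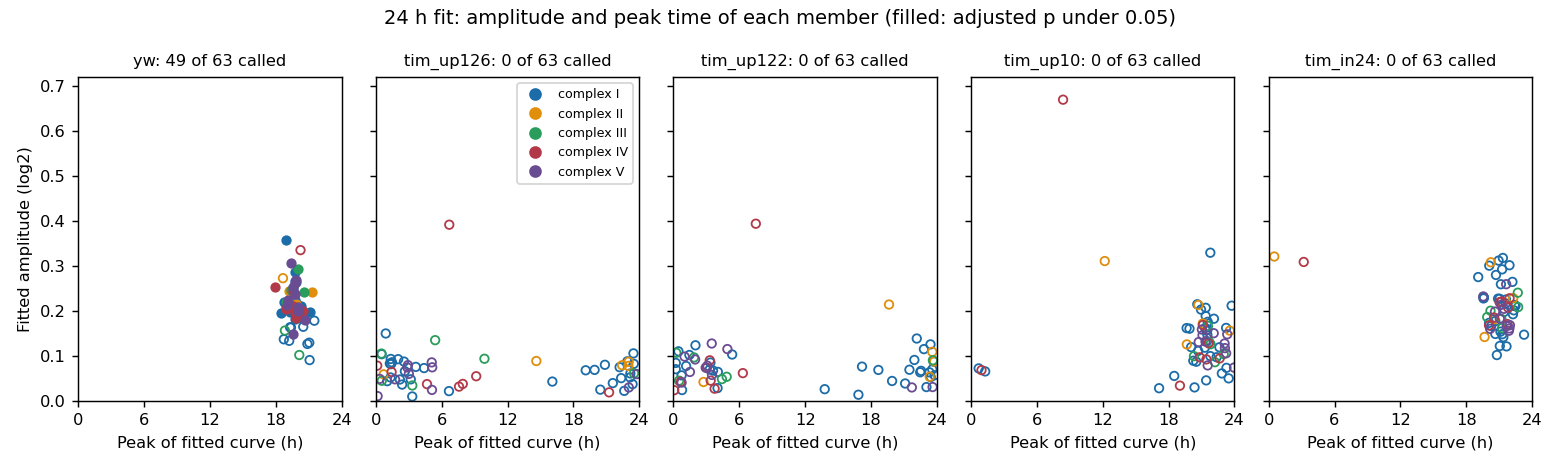
Fitted amplitude (log2, mean to peak) against the peak time (h) of the fitted 24 h curve for each of the 63 genes in each strain, coloured by complex. Filled symbols passed an adjusted p under 0.05 (49 in yw, none in the other strains); the amplitudes in yw have a median of 0.21 with all peaks late, and those in tim_up126 and tim_up122 have medians of 0.06 and 0.07.

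The genes with the smallest p in each deletion strain were the following. In tim_up126 they were UQCR-Q (amplitude 0.13, adjusted p = 0.242), ND-B18 (0.15, adjusted p = 0.361), UQCR-11 (0.10, adjusted p = 0.412) and ND-MLRQ (0.09, adjusted p = 0.432). In tim_up122 they were ND-51 (0.14, adjusted p = 0.0759), ND-ACP (0.12, adjusted p = 0.0964), SdhA (0.11, adjusted p = 0.139) and ATPsynC (0.13, adjusted p = 0.139). In tim_up10 they were ND-42 (0.21, adjusted p = 0.0744), SdhA (0.17, adjusted p = 0.145), SdhD (0.21, adjusted p = 0.1475) and ATPsynB (0.16, adjusted p = 0.216). In tim_in24 they were ND-B12 (0.32, adjusted p = 0.141), ND-15 (0.30, adjusted p = 0.195), ND-MNLL (0.31, adjusted p = 0.201) and ND-B14.5A (0.30, adjusted p = 0.273). None of these passed the threshold. Leaving out the ZT2 library of tim_in24 gave 5 calls in that strain, and leaving out replicate 1 of ZT2 in tim_up122 gave 1.

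The levels by library show the same. In tim_in24 the summed level was 13797 CPM at ZT2, 12883 CPM at ZT6, 12033 CPM at ZT10, 13625 CPM at ZT14, 14370 CPM at ZT18 and 16288 CPM at ZT22. In tim_up10 the values in the same order were 13500, 12952, 11955, 13053, 13580 and 14912 CPM. In both strains the lowest library was ZT10 and the highest ZT22, and the ratio between them was 1.35 and 1.25. In tim_up126 the means of the 2 libraries stayed between 11846 CPM at ZT18 and 12890 CPM at ZT2, a ratio of 1.09, and in tim_up122 between 11716 CPM at ZT10 and 13101 CPM at ZT2, a ratio of 1.12. The gap between the replicates of tim_up126 at ZT2, 14113 against 11667 CPM, was larger than the whole range of its time-point means. The ZT22 library of tim_in24 stood apart in other genes too. Its neuron markers summed to 2346 CPM, against 3062 to 3297 CPM in the other libraries of the strain. Its list of testis and male germ line genes summed to 129 CPM, against 201 to 243 CPM. In that list bol averaged 251 CPM over all libraries and betaTub85D 1.49 CPM, so the sum is close to the level of bol alone. Whether the lists vary independently, and their part in the high level of this library, was not tested.

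**Figure D3:**
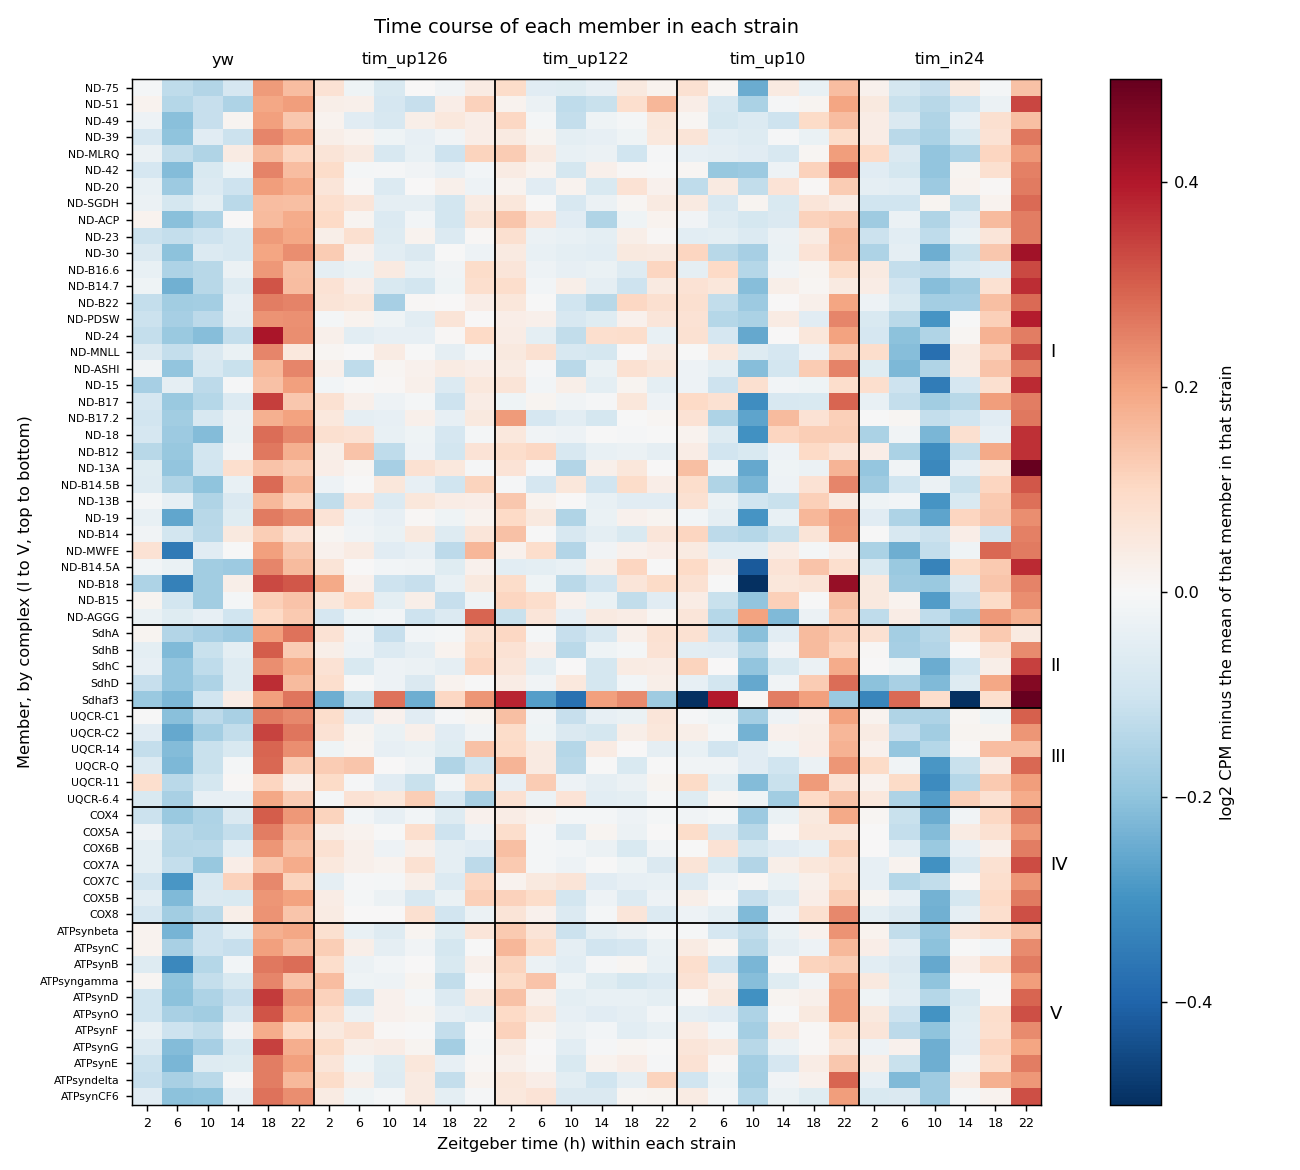
Level of each of 62 genes (all but COX4L) at each time point, as log2 CPM minus the mean of that gene in that strain, with genes in rows by complex and zeitgeber time (h) in columns by strain. Red is above and blue below the strain's mean, with the colour scale given beside the map. In yw nearly every row turns from blue at ZT6 to red at ZT18 and ZT22, in tim_up10 and tim_in24 the bluest column is ZT10 and the reddest ZT22, and tim_up126 and tim_up122 show pale rows.

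Whether the rhythm itself differed from that of yw was tested with interaction terms. In tim_up126, 3 of 63 genes were called, where 1.59% of all genes tested were called: ND-B18 (adjusted p = 0.0257), ND-18 (adjusted p = 0.0375) and UQCR-Q, a small subunit of complex III (adjusted p = 0.0426), with ATPsynB next (adjusted p = 0.0604). In tim_up122, 6 were called against 2.03% of all genes: ND-ACP, the mitochondrial acyl carrier protein (adjusted p = 0.0217), ATPsynC (adjusted p = 0.0256), ATPsyngamma, the rotating central stalk (adjusted p = 0.0334), COX6B (adjusted p = 0.0444), ATPsynCF6 (adjusted p = 0.0481) and ATPsynD (adjusted p = 0.0484). At an unadjusted p under 0.05 the counts were 43 and 44 of 63, against 1391 and 1452 of 11027 genes. The 2 lists share the yw libraries and had no gene in common.

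These interaction calls were sensitive to single libraries. For tim_up126 the count fell to 0 without replicate 2 of yw ZT6 or without the yw ZT18 library, and to 1 without replicate 1 of yw ZT2, replicate 1 of yw ZT22, or, in tim_up126, replicate 1 of ZT6, replicate 2 of ZT10, replicate 2 of ZT18 or replicate 2 of ZT22, and it rose to 5 without replicate 1 of tim_up126 ZT22. For tim_up122 it fell to 0 without replicate 1 of tim_up122 ZT6, to 1 without replicate 2 of yw ZT6 or the yw ZT18 library, to 2 without replicate 1 of yw ZT2, ZT6 or ZT22 or replicate 1 of tim_up122 ZT18, and to 3 without replicate 2 of yw ZT10, replicate 1 of yw ZT14, or replicate 2 of tim_up122 ZT2, ZT18 or ZT22. Without both yw ZT22 libraries neither strain had a call.

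With 1 common curve fitted to all 47 libraries and a level of its own for each strain, 47 of the 63 genes were called, against 31.3% of all genes tested. A call of this common curve, named the shared rhythm below, does not show a rhythm in each strain. Within each deletion strain none of the 63 was called. Their peaks fell between 20.3 and 23.9 h and the called amplitudes between 0.07 and 0.18. SdhA (amplitude 0.14, peak 21.9 h, adjusted p = 6.49e-07), ND-51 (0.15, 22.1 h, adjusted p = 9.53e-07), ND-B22, an accessory subunit of complex I (0.14, 21.4 h, adjusted p = 8.09e-06), and ND-49, a core subunit near the ubiquinone site (0.11, 20.8 h, adjusted p = 3.25e-05) had the smallest p-values. By complex the calls were 27 of 33, 4 of 5, 3 of 6, 4 of 8 and 9 of 11 from I to V. The count was 27 with library totals alone and 27 without both yw ZT22 libraries, and 2 with RpL32 scaling. For these 3 settings, too, the share of all genes called is not given. RpL32 itself ranged from 381 to 724 CPM among the tim_up122 libraries, from 467 to 562 CPM in yw, and was not called rhythmic in any strain.

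Over the day, each deletion strain was compared with yw as the mean of the 6 time-point differences, with all 47 libraries in the fit. The 4 comparisons share the yw libraries. The calls counted in each include COX4L, which met the count minimum only through deletion libraries, so its call was favoured in advance. With TMM scaling, the summed level of the respiratory genes was close to that of yw in the larger deletions and above it in tim_up10 and tim_in24; scaled to RpL32 it was below yw in both, at 90.01% and 95.3%, and with library totals alone it was 101.7% in tim_up10. As a percentage of yw with TMM scaling, it was 102.5% for tim_up126, 102.3% for tim_up122, 111.2% for tim_up10 and 115.4% for tim_in24. For complex V alone it was 107.1%, 105.3%, 118.7% and 120.5%, for complex IV 98.4%, 102.5%, 110.2% and 115.3%, and for complex I 99.4%, 100.3%, 106.6% and 111.4%.

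In tim_in24, 25 of the 63 genes were higher and none lower at an adjusted p under 0.05, where 12.3% of all genes tested were higher and 13.1% lower. These were 8 of 33 in complex I, 1 of 5 in complex II, 1 of 6 in complex III, 6 of 8 in complex IV and 9 of 11 in complex V. Of the 63, 60 had a difference above 0, and the median was 0.18 on the log2 scale, against -0.03 over all genes. The largest rises after COX4L were those of ATPsyngamma (0.36 ± 0.06, SE; adjusted p = 0.000131), ATPsynB (0.34 ± 0.10, adjusted p = 0.0136) and ATPsynC (0.32 ± 0.05, adjusted p = 3.0e-05). ATPsyngamma had 380, 353, 320, 368, 367 and 425 CPM from ZT2 to ZT22 in tim_in24, and in yw between 246 and 340 CPM with a median of 280 CPM, so only the ZT10 library lay inside the range of yw. Of the genes followed throughout, ATPsynbeta (0.24, adjusted p = 0.000745), SdhA (0.18, adjusted p = 0.00769), UQCR-C2 (0.27, adjusted p = 0.0222), ND-51 (0.18, adjusted p = 0.031) and COX5A (0.18, adjusted p = 0.0489) were called, and ND-75 (0.18, adjusted p = 0.0781), COX4 (0.20, adjusted p = 0.0741), UQCR-C1 (0.18, adjusted p = 0.0658), SdhB (0.13, adjusted p = 0.0965), ND-20 (0.14, adjusted p = 0.108) and ND-49 (0.08, adjusted p = 0.25) were not.

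The count in tim_in24 depended on a few libraries and on the scale. It was 12 without its ZT6 library and 16 without its ZT22 library. Without both yw ZT22 libraries it was 15, where 10.6% of all genes were higher. With only the libraries of tim_in24 and yw in the fit it was 43 (13.5% of all genes higher). With library totals alone it was 10 (9.32%). With RpL32 scaling 1 gene was higher and 2 were lower. The whole distribution moved with that scaling, by -0.27 on the log2 scale over all genes, and the members stayed 0.20 above the median of all genes in it. With each replicate set as 1 sample (limma, added after the data had been seen) 2 of 63 were called, where 11.5% of all genes were. Muscle markers reached their highest summed level in tim_in24, with 5362, 3169, 4290, 5232, 4326 and 4200 CPM from ZT2 to ZT22, against 2535 to 4667 CPM in yw; of the 10 markers 5 were called higher and 4 lower, among these Mhc (-0.37) and Act88F (-1.76). Of 8 photoreceptor markers 6 were called higher, and they summed to between 40130 and 46050 CPM in tim_in24 against 32230 to 40940 CPM in yw. The part of both lists in the difference was not tested.

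In tim_up10, 7 genes were higher and none lower, where 11.2% of all genes were higher and 12.2% lower. The median of the 63 was 0.10, against -0.04 over all genes, and it was 0.18 in complex IV, 0.17 in complex V and -0.05 in complex II. With only the libraries of tim_up10 and yw in the fit 21 genes were higher, where 12.6% of all genes were, and with all genes of any count tested 11, where 7.81% were. Besides COX4L the largest rises were ND-B14.7 (0.34 ± 0.08, adjusted p = 0.00233), ATPsynC (0.31 ± 0.05, adjusted p = 6.1e-05) and ATPsynbeta (0.30 ± 0.05, adjusted p = 6.54e-05), followed by ATPsyngamma, COX7C and ATPsyndelta. ATPsynbeta had 1714, 1622, 1580, 1678, 1744 and 2006 CPM from ZT2 to ZT22 in tim_up10, against 1417 and 1405, 1143 and 1228, 1296 and 1299, 1394 and 1289, 1573, and 1598 and 1583 CPM in yw; at each time point the tim_up10 library was above the yw libraries. With RpL32 scaling ATPsynbeta was at 0.00 in tim_up10 and at -0.03 in tim_in24. Fat body markers (Lsp2, apolpp, Fbp1 and Fbp2) summed to between 9747 and 12880 CPM in tim_up10, against 4139 to 8399 CPM in yw. The yolk protein genes Yp1, Yp2 and Yp3, markers of females, were all called higher (0.75, 0.53 and 0.61) and summed to between 53100 and 97450 CPM, against 25290 to 63360 CPM in yw. In tim_up126, tim_up122 and tim_in24, 1, 2 and 1 of these 3 were also called higher, with Yp1 at 0.50, 0.50 and 0.55. Of the 3 fat body markers tested, 1, 2 and 1 were called higher there, and Lsp2 was called lower in tim_in24 (-1.59). The part of either list was not tested.

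**Figure D4:**
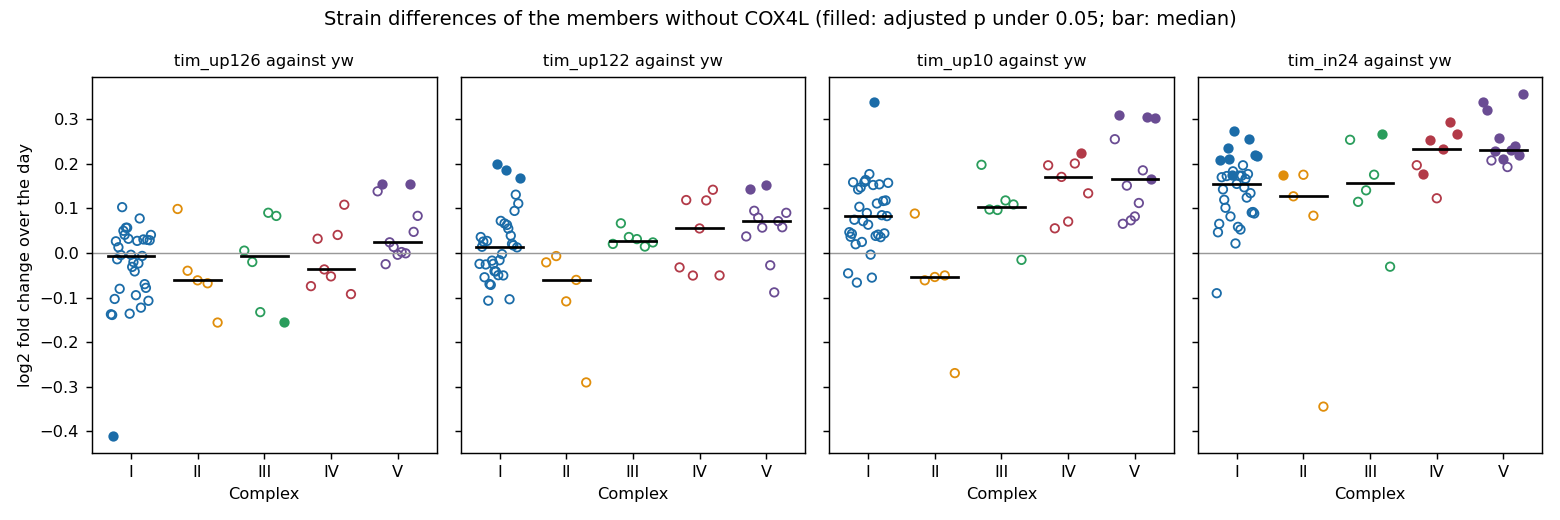
Log2 fold change over the day of each gene except COX4L in each deletion strain against yw, by complex; filled symbols passed an adjusted p under 0.05 and bars are medians. In tim_in24 the points of complexes IV and V sit highest, and the point far below 0 in complex I of tim_up126 is ND-15 (-0.41).

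In tim_up126, 3 genes were higher and 2 lower, where 12.1% and 13.3% of all genes were, and the median of the 63 was -0.00. ATPsynbeta (0.15 ± 0.04, adjusted p = 0.00754) and ATPsynC (0.15 ± 0.04, adjusted p = 0.00829) rose with COX4L, and ND-15 (-0.41 ± 0.04, adjusted p = 1.85e-08) and UQCR-Q (-0.15 ± 0.05, adjusted p = 0.0307) fell. In tim_up122, 6 were higher and none lower, where 12.6% and 13.6% were, with a median of 0.02: COX4L, ND-ACP (0.20 ± 0.05, adjusted p = 0.00343), ND-B14.7 (0.19 ± 0.07, adjusted p = 0.0363), ND-SGDH (0.17 ± 0.05, adjusted p = 0.0122), ATPsynF and ATPsynC. These shares lie below those over all genes. Apart from ND-15 and COX4L, the called differences were 0.15 in size in tim_up126 and 0.14 to 0.20 in tim_up122, smaller in size than the largest single-gene differences between the replicate sets of each strain (0.36 in tim_up126 and -0.44 in tim_up122). Without the yw ZT18 library the counts were 8 and 12, and without replicate 1 of tim_up126 ZT2 the count for that strain was 8. Each set of libraries with the same replicate number was also counted as 1 sample (limma on 8 sets, an alternative added after the data had been seen). The calls left were ND-15 in tim_up126, ATPsyngamma in tim_in24 and COX4L in all 4 strains, while 10.3% to 12.2% of all genes were called. Nothing is read from the COX4L calls, since the choice of that gene favoured them.

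tim_up126 and tim_up122 were also compared with each other. SdhA was higher in tim_up126 (0.12 ± 0.04, adjusted p = 0.045), and ND-15 (-0.42 ± 0.04, adjusted p = 3.12e-08), UQCR-Q (-0.18 ± 0.05, adjusted p = 0.0228), ND-MLRQ (-0.17 ± 0.05, adjusted p = 0.0153), ND-ACP (-0.17 ± 0.05, adjusted p = 0.0233) and ATPsynF (-0.16, adjusted p = 0.0148) were lower, where 5.85% of all genes were higher and 5.57% lower. The count of 6 became 10 without replicate 1 of tim_up126 ZT22. With the sets as samples ND-15 was called.

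ND-15, a subunit of the membrane arm of complex I whose human counterpart is NDUFS5, was the member with a level of its own in tim_up126. It lies near the end of chromosome arm 2L (chr2L:114726-156030, plus strand), 3337956 bases from tim. Its 12 libraries in tim_up126 had between 57.5 and 70.2 CPM with a median of 63.9 CPM. The 11 libraries of yw had between 73.4 and 99.4 CPM (median 81.2 CPM), the 12 of tim_up122 between 81.4 and 95.4 CPM (median 84.5 CPM) and the 6 of tim_up10 between 81.2 and 92.6 CPM (median 86.1 CPM). tim_in24 ran from 69.9 to 115.1 CPM (median 89.0 CPM), and its ZT10 library was the only one outside tim_up126 that fell below the highest tim_up126 library. All 12 tim_up126 libraries were below all yw and tim_up122 libraries, which held for 10 of the 11027 genes tested (0.0907%) and for no other member. Both replicate sets of tim_up126 had the low level, and the call held without each library in turn and under each scaling, filter and tool tried. Of the 1135 exonic bases of ND-15, 180 overlap other genes, CG3436 on the same strand and Pus10 on the other, so reads there cannot be assigned to 1 gene.

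COX4L, at a very low level, lay above yw in all 4 deletion strains. It met the count minimum only through libraries of these strains (10 counts or more in 14 of them and in 0 of yw), so that choice favoured a higher level there; its values are a description, and its place among the calls counted above rests on the same choice. This gene on chromosome 2R (chr2R:5353994-5354723) resembles COX4, the regulatory subunit of cytochrome c oxidase. In yw its raw counts were 0 to 4 per library, 18 in all 11 libraries together, or 0.245 CPM (exact Poisson 95% interval 0.145 to 0.387). tim_up126 had 3 to 23 counts per library (134 in all, 2.19 CPM, 1.84 to 2.60) and tim_up122 had 4 to 14 (92 in all, 1.58 CPM, 1.27 to 1.93). tim_up10 and tim_in24 both had 3 to 10 per library, with 35 in all (1.55 CPM, 1.08 to 2.16) and 39 in all (1.37 CPM, 0.972 to 1.87). The pooled level was 8.96 times that of yw for tim_up126 (5.46 to 15.6), 6.43 times for tim_up122 (3.85 to 11.3), 6.35 times for tim_up10 (3.50 to 11.9) and 5.58 times for tim_in24 (3.12 to 10.4); these intervals cover counting error only. In CPM, all 36 libraries of the deletion strains were above all 11 of yw, as for 0.571% of all genes, and nothing is read from this count. COX4 itself, with 393 CPM in yw, had differences of -0.07, -0.03, 0.20 and 0.20 in the 4 strains, none of them called.

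**Figure D5:**
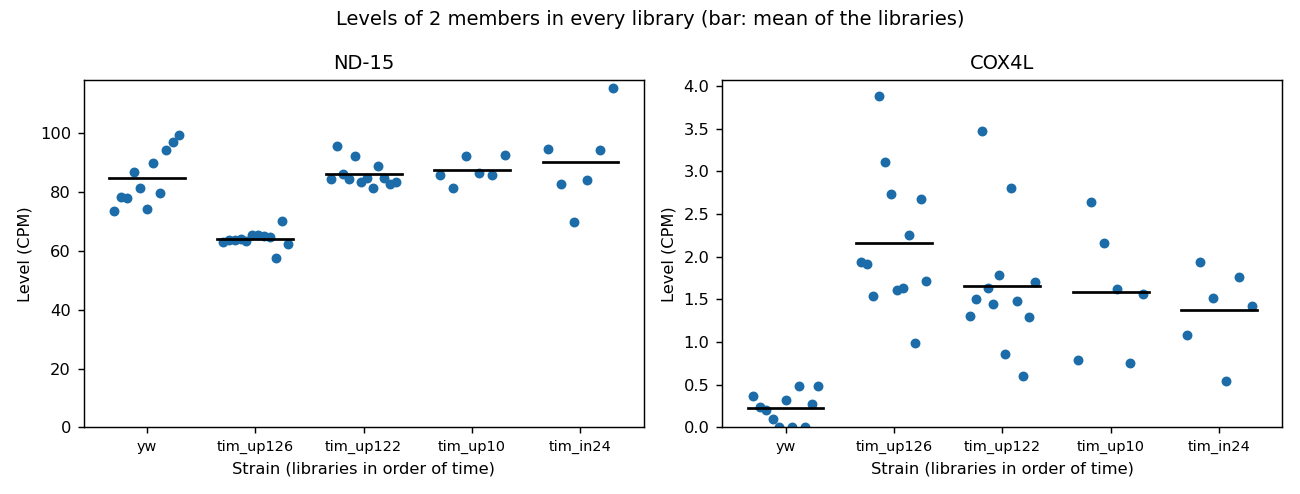
Level (CPM) of ND-15 and COX4L in every library, by strain, with the mean as a bar. For ND-15 the 12 libraries of tim_up126 lie between 57.5 and 70.2 CPM, below every library of yw, tim_up122 and tim_up10; for COX4L every deletion library lies above every yw library.

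At single time points the larger deletions were compared with yw one time at a time, with few calls. tim_up126 had 4 at ZT6 (ATPsynC 0.35, ATPsynbeta 0.35 and COX4L higher, ND-15 lower), 1 at ZT10 (COX4L), 1 at ZT14 (ND-15, -0.37), 3 at ZT18 (ND-15 -0.63, UQCR-Q -0.59 and ND-B17 -0.57) and 2 at ZT22 (ND-15 -0.55 and COX4L), and none at ZT2. Over all genes tested, 4.28%, 6.77%, 6.09%, 5.56%, 3.55% and 5.44% were called from ZT2 to ZT22. tim_up122 had 7 at ZT6, all higher (ND-ACP 0.47, ND-MWFE 0.43, COX7C 0.48, ATPsynC 0.40, ATPsynbeta 0.37, ATPsyngamma 0.43 and COX4L), 1 lower at ZT22 (ND-24, -0.38) and none at the other times, where the percentages over all genes were 4.45%, 9.84%, 5.94%, 5.01%, 3.45% and 6.91%. The direction of the whole group followed the time of day. In tim_up126, 59 of 63 differences were above 0 at ZT6 (median 0.175) and 62 of 63 below 0 at ZT18 (median -0.29). In tim_up122 the counts were 61 above 0 at ZT6 (median 0.22) and 60 below 0 at ZT18 (median -0.21). The yw side of ZT18 is 1 library. Calls at ZT6 rested on its libraries: summed over time points, the 11 calls of tim_up126 became 6 without replicate 2 of yw ZT6 and 7 without replicate 2 of tim_up126 ZT6, and the 8 of tim_up122 became 2 and 3 without replicate 1 and replicate 2 of yw ZT6 and 3 without replicate 1 of tim_up122 ZT6.

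The 18 genes that matched the symbol rule but not the count minimum were 17 paralogs whose symbols end in L, L1 or L2, and ND-B8. The paralogs had at most 13 counts in any library (ATPsynbetaL), and none had 10 counts in 5 libraries. Paralogs of these subunits are known in flies as genes of the testis. ND-B8, the homolog of the accessory subunit NDUFA2 and thus a subunit in its own right, had counts in 35 libraries but reached 10 in 2: 50 in replicate 1 of yw ZT22, and 17 in the yw ZT18 library. It overlaps Gs1l on the opposite strand by 71 bases. ND-MNLL lies wholly inside CG45089 on the same strand, and both have identical counts in all 47 libraries, so its values are those of the shared region. All 523 exonic bases of UQCR-14 are covered by CG32576 on the opposite strand; the counting is not stated to use strand, so reads of these genes cannot be told apart. ND-PDSW, the member nearest to tim on 2L at 26652 bases, was 0.22 higher in tim_in24 (adjusted p = 0.0251) and was not called in the other strains.

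Genes of the same pathway whose symbols fall outside the rule were measured beside them. The lists were chosen with earlier results of these data known. Over all genes tested, 15.4% were called rhythmic in yw. Over the day 12.1%, 12.6%, 11.2% and 12.3% were higher in tim_up126, tim_up122, tim_up10 and tim_in24, and 13.3%, 13.6%, 12.2% and 13.1% lower. Of 8 further nuclear subunits and carriers of the chain, 6 were called rhythmic in yw: Cyt-c-p, the main cytochrome c (amplitude 0.49, peak 19.8 h, adjusted p = 6.4e-05), Cyt-c1 (0.26, 19.5 h), RFeSP, the Rieske iron-sulfur protein (0.27, 19.9 h), levy (0.26, 19.5 h), cype (0.22, 19.3 h) and blw, the alpha subunit of ATP synthase (0.22, 20.04 h). The ATP synthase epsilon subunit sun and the complex III subunit ox had amplitudes of 0.15 and 0.13 and were not called. Cyt-c-p was the one gene of this list that was also called in tim_up10 (adjusted p = 0.015) and in tim_in24 (adjusted p = 0.0418); in tim_up126 and tim_up122 no gene of the list was called. Over the day, 5 of the 8 were higher in tim_in24 (median 0.225), 3 higher and 1 lower in tim_up10, 2 higher in tim_up122, and 1 higher and 1 lower in tim_up126, the lower being Cyt-c-p in both cases (-0.24, adjusted p = 0.000349, and -0.21, adjusted p = 0.00863).

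Among 10 tested genes of the citric acid cycle, which feeds the chain with NADH and succinate, 6 were rhythmic in yw. Over all genes tested 15.4% were. Idh3a, Idh3b, mAcon1 and Fum1 peaked between 19.4 and 20.5 h, close to the respiratory subunits, whereas kdn, the citrate synthase, and Nc73EF, a 2-oxoglutarate dehydrogenase subunit, peaked at 23.9 and 0.20 h. Both of these and ScsbetaA were called in tim_up122 (adjusted p = 0.000195, 0.00628 and 0.0178), and both also in tim_up10 (adjusted p = 0.0141 and 0.00968). Over the day 5, 3, 5 and 6 of the 10 were higher in tim_up126, tim_up122, tim_up10 and tim_in24 and none lower. Over all genes 12.1%, 12.6%, 11.2% and 12.3% were higher. The rises were led by the succinyl-CoA synthetase subunits ScsbetaA (0.65, 0.45, 0.59 and 0.69) and Scsalpha1 (0.40, 0.29, 0.48 and 0.58). Of the 4 carriers, porin was higher in all 4 strains (0.18, 0.17, 0.26 and 0.34), and sesB, the adenine nucleotide translocase, was rhythmic in yw (0.24, peak 20.7 h, adjusted p = 0.00245). None of 6 tested regulators of mitochondrial gene expression was rhythmic in yw. Of these, srl, the fly PGC-1 homolog (0.42, adjusted p = 0.0023), and ewg, the NRF-1 homolog (0.18, adjusted p = 0.0244), were higher in tim_up122, and none of the 6 was called in the other strains against yw.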

How the data were processed

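Poly(A) RNA of fly heads was sequenced with TruSeq libraries. The deposited values are raw counts per gene; the series text names STAR and featureCounts on dm6, while the study's methods name another aligner and counter, and strand use is not stated. The table of normalized counts was not used. No mitochondrially encoded gene is listed in the table. From the counts, edgeR 4.0.16 in R 4.3.3 was used with TMM scaling and filterByExpr (11027 genes), glmQLFit and glmQLFTest, and Benjamini-Hochberg adjustment over all genes tested (threshold 0.05). Levels are TMM-scaled CPM, and amplitudes printed with an SE were fitted by least squares to log2 CPM (prior count 2). One coefficient per strain and time point was fitted over all 47 libraries; rhythms used a 24 h cosine and sine. DESeq2 1.42.0 and limma 3.58.1 served for alternatives. The fits were tested on simulated data. Replicates were stated to be independent biological samples. The over-the-day p-values rest on the spread between replicates in yw, tim_up126 and tim_up122. With 1 library per time point, tim_up10 and tim_in24 add nothing to that spread and borrow it. The rhythm p-values rest on departures from the fitted 24 h curve, which in tim_up10 and tim_in24 include no difference between replicates. No replicate pair agreed within sampling noise (chi-square per degree of freedom of at least 5.09 in 17 pairs). Exonic lengths, positions and overlaps come from the Ensembl annotation of the same assembly. Named genes are the 4 largest rises and falls among called members per comparison, the 4 smallest p per rhythm test, 12 core subunits, the highest and lowest of each complex, and called paralogs; ND-B8, ND-PDSW, ND-MNLL and UQCR-14 were added after their values were seen. The members and lists were chosen with earlier results of these data known. The alternatives are other scalings (DESeq2 size factors, library totals, RpL32), other filters, DESeq2 tests, a replicate block, fewer libraries and leaving out each library. A promoter motif search was planned but not run, for lack of promoter sequence here.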

Additional observations from a re-analysis of the deposited data

Results flagged for a closer look

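The rhythm of 9 genes differed between yw and a larger deletion by the interaction test (edgeR, Benjamini-Hochberg adjusted). Against tim_up126 these were ND-B18 (adjusted p = 0.0257), ND-18 (adjusted p = 0.0375) and UQCR-Q (adjusted p = 0.0426). Against tim_up122 they were ND-ACP (adjusted p = 0.0217), ATPsynC (adjusted p = 0.0256), ATPsyngamma (adjusted p = 0.0334), COX6B (adjusted p = 0.0444), ATPsynCF6 (adjusted p = 0.0481) and ATPsynD (adjusted p = 0.0484). The fitted difference curves had amplitudes from 0.21 for COX6B to 0.38 for ND-B18 on the log2 scale. None of the 9 calls was made without both yw ZT22 libraries.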

How the results depend on the processing

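Counts of called genes moved most with the scaling, the libraries and the fit; except where an alternative leaves out libraries, the cause was not tested. With library totals alone 8 genes were called in tim_up126 over the day, 3 in tim_up122, 10 in tim_in24 and 27 for the shared rhythm, and the summed level of tim_up10 was 101.7% of yw. With RpL32 scaling the counts were 2 in tim_up126, 1 in tim_up122, 3 in tim_in24, 1 in tim_up126 against tim_up122, 2 and 1 at single time points, 16 for the yw rhythm, 1 for that of tim_up10 and 2 for the shared rhythm, with summed levels of 90.01% in tim_up10 and 95.3% in tim_in24. It also reversed the sign of ATPsynbeta in tim_up10 (-0.003294), and in tim_in24 of ND-51 (-0.09596), SdhA (-0.09521), UQCR-C2 (-0.004835), COX5A (-0.09357) and ATPsynbeta (-0.0303). RpL32 itself was 0.30 higher in tim_up10 on the log2 scale (edgeR, adjusted p = 0.0363); its difference of 0.27 in tim_in24 did not pass (adjusted p = 0.0619). The median of all genes moved by -0.127 with library totals and -0.305 with RpL32 in tim_up10, and by -0.269 with RpL32 in tim_in24. With library totals, 976 of all 11027 genes tested were called higher and 2040 lower in tim_up126. The counts were 1068 and 1910 in tim_up122, and 1028 and 2359 in tim_in24. With RpL32 scaling they were 678 and 681 in tim_up126, 545 and 930 in tim_up122, and 358 and 3331 in tim_in24. The member counts are to be read against these.

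With every gene of any count tested, 11 genes were called in tim_up10. With only the 2 strains compared in the fit, 21 were called in tim_up10 and 43 in tim_in24. DESeq2 called 7 at single time points in tim_up126 and 3 for the rhythm of tim_up122. In a fit of all 47 libraries the rhythm counts were 1 in tim_up122 and 7 in tim_in24. For these DESeq2 counts and this fit the share of all genes called is not given. The next alternatives were chosen after seeing the data. Without both yw ZT22 libraries the counts were 15 in tim_in24 over the day, 10 for the yw rhythm, 27 for the shared rhythm and 0 for both rhythm differences. With each set of libraries as 1 sample they were 2, 1, 1 and 2 in tim_up126, tim_up122, tim_up10 and tim_in24 against yw, and 1 between the larger deletions. COX4L, whose choice favoured a call, is 1 of those counted in each strain against yw.

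Leaving out each library in turn gave 4 to 8 calls in tim_up126, 5 to 12 in tim_up122, 5 to 9 in tim_up10, 12 to 37 in tim_in24 and 4 to 10 between the larger deletions. At single time points it gave 6 to 13 and 2 to 10. For rhythms it gave 34 to 49 in yw, 0 in tim_up126, 0 to 1 in tim_up122, 0 in tim_up10 and 0 to 5 in tim_in24. It gave 36 to 54 for the shared rhythm, and 0 to 5 and 0 to 9 for the rhythm differences. The share of all genes called is not given for fits that leave out 1 library, here or above. A change in member calls cannot be told there from a general change.

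Correlations of the replicate deviations between strains ran from -0.29 to 0.179 over 16 pairs, 3 of them above 0.1. Between tim_up126 and tim_up122 they were negative at every time point, from -0.29 to -0.0196. The same replicate number thus did not mark libraries of like deviation in these strains. What the negative sign stands for was not tested. With a replicate block 6, 8, 9 and 21 genes were called over the day in tim_up126, tim_up122, tim_up10 and tim_in24, and 7 between the larger deletions. It gave 49 for the shared rhythm, 51 for the rhythm of yw and 1 for that of tim_up122. Over the day and for the shared rhythm, the block gave replicate 2 the same shift in all strains. It therefore does not remove a replicate difference of opposite sign between strains. The share of all genes called with the block is not given. Library totals without mitochondrially encoded genes were not run, since the table lists none.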
